A study of Mus musculus with 8 samples.

Results

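Insulin and insulin-like growth factor signal through a kinase cascade that ends in the control of protein and lipid synthesis, and 10 genes of that cascade were followed here: Insr, Igf1r, Irs1, Irs2, Pik3ca, Akt1, Akt2, Mtor, Rptor and Rheb. They were chosen by name, and each was represented by a single named probe set, so 10 of 10 were measured among 19505 genes. The arrays came from luminal cells, the milk-producing epithelium of the mouse mammary gland, sorted by flow cytometry from enzyme-digested tissue on day 15 of pregnancy. There were 4 arrays of cells labelled a3a6KO and 4 of cells labelled control, described as biological replicates. In the label a3a6KO, a3 and a6 stand for integrin alpha 3 (Itga3) and alpha 6 (Itga6), chains that pair with beta chains to bind laminin. The titles of the a3a6KO arrays read DKO together with Ctrl, while their source name and cell subtype name the knockout alone, and they were grouped by the subtype. For the deleted exons, the Cre driver, the strain, the age of the mice and any allele carried by the controls, the labels give nothing. Each sample started from 500 pg of total RNA, amplified before labelling.

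Binding of insulin or IGF1 to the receptors encoded by Insr and Igf1r leads to phosphorylation of the adaptors Irs1 and Irs2, which recruit PI3-kinase, with Pik3ca encoding a catalytic subunit. The lipid made by that kinase brings Akt to the membrane, where it is phosphorylated and acts on metabolism, survival and, through the Tsc complex and the small GTPase Rheb, on mTOR complex 1, in which Rptor holds the substrates for the kinase Mtor. In the mouse mammary gland, insulin is a lactogenic hormone together with prolactin and glucocorticoid, and Akt1 is the isoform known to be needed for full metabolic function in lactation. Activity in this cascade is set largely by phosphorylation, which arrays of RNA do not measure.

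Across the arrays, the deposited values were on the log2 scale and ran between 0.96 and 13.28. The 95th percentile of the intron control probe sets of the same array, 6.45 to 6.76 in a3a6KO and 6.38 to 6.90 in control, was taken as background. The 8 luminal markers, Krt8, Krt18, Epcam and Csn2 among them, exceeded it on every array. Itga6 was at 5.95, 3.65, 8.21 and 7.85 in a3a6KO 1 to 4, against 8.83, 8.73, 9.14 and 8.80 in control 1 to 4, so a3a6KO 3 and 4 lay nearest to the controls. Itga3 was at 4.34 to 5.60 in a3a6KO and 5.37 to 7.27 in control. Since the position of the probes within either gene is unknown here, these levels do not show which chains were lost on a given array. Each member's difference is therefore also given without a3a6KO 3 and 4, a setting chosen after the data were seen. The mean of 10 basal (myoepithelial) markers was 5.37, 5.34, 7.17 and 5.70 in a3a6KO 1 to 4 and 6.12, 7.51, 6.32 and 7.78 in control 1 to 4, with 2 of the 10 above background on every array and 2 on none. Of adipocyte markers, whose cells are known to respond strongly to insulin, 5 of 6 exceeded background on no array and 1 on all 8. The mean of the 6 was 4.34 to 4.90 in a3a6KO and 4.40 to 4.72 in control. In bulk samples, fewer cells of a type and less RNA per cell cannot be told apart.

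No member of the cascade differed between a3a6KO and control past the threshold of 0.05, in limma with Benjamini-Hochberg adjustment over all genes. The integrin genes named in the label did not pass it either, with differences of -2.46 for Itga6 and -1.265 for Itga3 (adjusted p = 0.944 for each). The lack of a call is therefore weak evidence that a gene was unchanged. Itga3 exceeded background on 1 control array alone, and the residual SD of Itga6 exceeded that of 99.6% of genes. These integrin genes thus do not set the sensitivity for a typical gene. Means were higher in a3a6KO for 6 members and lower for 4, with a median difference of 0.10 on the log2 scale beside -0.0025 over all genes. The adjusted p-values of the 10 members lay between 0.946 and 0.984 in limma. The test called 0% of all genes by adjusted p, and 5.13% of genes had an unadjusted p under 0.05, against 0 of the 10 members (2.4% of genes higher in a3a6KO and 2.73% lower). The 2 groups overlapped in all 10 members, where 2.94% of all genes had groups that did not overlap. Standard errors of the members' differences ran from 0.246 for Pik3ca to 0.711 for Akt2, beside a median of 0.234 over all genes. The 95% intervals of 5 members reached past 1 log2 unit at 1 end or both.

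**Figure D1:**
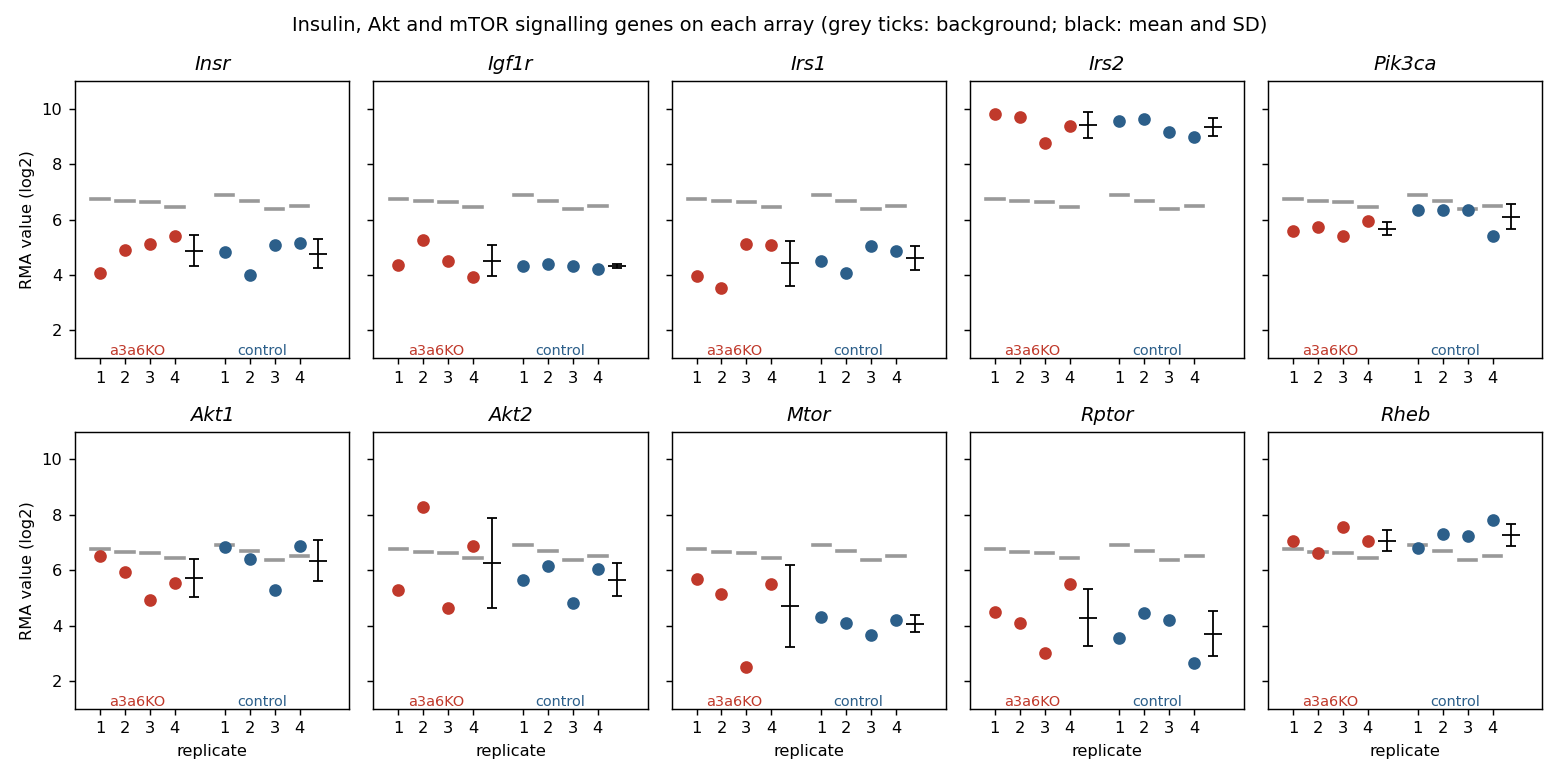
Deposited log2 value (vertical axis) of each of the 10 genes on each array, with a3a6KO 1 to 4 (red) left of control 1 to 4 (blue), the background of each array as grey ticks, and the mean and SD of each group in black (n = 4). Irs2 lies far above background on every array, Rheb near or above it, and Insr, Igf1r, Irs1, Pik3ca, Mtor and Rptor below it throughout.

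The genes fell into 3 kinds by signal. Irs2 exceeded background on all 8 arrays, Rheb on 6, Akt2 on 2 and Akt1 on 1, while the other 6 did so on none. Over all genes 76.4% exceeded background on no array and 8.25% on all 8. A gene under this limit is not shown to be absent, since it may still exceed the typical intron set, but its log2 difference may understate a change in RNA, and no fold is given for such genes.

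The 2 receptor genes had low signal in luminal cells of both groups. Insr, the insulin receptor, was at 4.08, 4.91, 5.11 and 5.41 in a3a6KO 1 to 4 and at 4.84, 4.00, 5.07 and 5.14 in control 1 to 4, a difference of 0.12 (SE 0.339). In each group, 1 array stood well under the rest, and the groups covered nearly the same range. Igf1r, the receptor for IGF1, was at 4.35, 5.28, 4.52 and 3.93 in a3a6KO and 4.31, 4.40, 4.32 and 4.23 in control, a difference of 0.21 (SE 0.265). Its 4 control values lay within 0.17 of each other, whereas the a3a6KO values spanned 1.35, with a3a6KO 2 and a3a6KO 3 above every control and a3a6KO 4 below. The 95% intervals of the differences were -0.65 to 0.88 for Insr and -0.39 to 0.80 for Igf1r. Without a3a6KO 3 and 4 the differences were -0.27 for Insr and 0.50 for Igf1r.

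The adaptor Irs2 had the strongest signal over background, and its group means differed by less than their spread. It was at 9.81, 9.71, 8.76 and 9.36 in a3a6KO 1 to 4 and 9.57, 9.63, 9.17 and 8.97 in control 1 to 4, with means of 9.41 ± 0.47 and 9.34 ± 0.32 (SD, n = 4). The highest and the lowest of the 8 values both belonged to a3a6KO. The difference of 0.08 (SE 0.266) had a 95% interval of -0.52 to 0.67, or 0.696-fold to 1.59-fold, which leaves larger changes in either direction outside it. Irs1, the other widely expressed adaptor, was below background on every array. Its values were 3.96, 3.52, 5.13 and 5.08 in a3a6KO and 4.49, 4.09, 5.04 and 4.86 in control, a difference of -0.20 (SE 0.39). The a3a6KO arrays split, with a3a6KO 1 and 2 below every control and a3a6KO 3 and 4 above every control. Without a3a6KO 3 and 4 the difference of Irs1 was -0.88 and that of Irs2 0.43, neither past the threshold.

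The 2 adaptor genes share promoter motifs, and the stretches below are shown because they hold them. RefSeq promoters (GRCm38.p6, 250 bases before to 50 after the start) were at hand for 9 of the 10 members, in 13 windows. They were searched on both strands for CACGTG, an E-box bound by basic helix-loop-helix factors, CAAAACAA, known as an insulin response sequence bound by FoxO factors, GTAAACA, the forkhead core, and TTCNNNGAA, the palindrome known to be bound by Stat5. CACGTG was found in Irs1, Irs2 and Rheb and in 7.15% of all 32851 windows, and CAAAACAA in Irs1 and Irs2 and in 2.51%. Both occurred together in Irs1, in Irs2 and in 0.155% of all windows. No other pair of motifs was counted jointly, so this share is no test of the members. In Irs2 the 2 motifs adjoin, starting 44 and 38 bases before the start. In Irs1 they begin 115 and 33 bases before the start, so the Irs1 window below holds the E-box alone. Stretches of 60 bases are written 5′ to 3′ on the gene's strand, with matches in capitals, and lie at chr8:11008941-11009000 (Irs2), chr1:82291522-82291581 (Irs1) and chr5:24842425-24842484 (Rheb), all on the minus strand.
Irs2: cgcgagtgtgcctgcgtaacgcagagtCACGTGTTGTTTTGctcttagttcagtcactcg
Irs1: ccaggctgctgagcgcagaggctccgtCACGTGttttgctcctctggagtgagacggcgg
Rheb: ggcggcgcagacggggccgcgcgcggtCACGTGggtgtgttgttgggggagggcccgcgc
A match is a description of the letters and shows neither binding nor use in these cells.

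Pik3ca, a catalytic subunit of PI3-kinase, had the smallest p of the 10. It was at 5.58, 5.75, 5.41 and 5.94 in a3a6KO 1 to 4 and at 6.35, 6.33, 6.34 and 5.42 in control 1 to 4. The first 3 controls lay above every a3a6KO array, and control 4 lay among the a3a6KO arrays. The difference was -0.44 (SE 0.246, 95% interval -0.99 to 0.11, unadjusted p = 0.106, adjusted p = 0.946 in limma). It was -0.67 without control 4 (unadjusted p = 0.0065, adjusted p = 0.917) and between -0.53 and -0.35 without any other single array. Without a3a6KO 3 and 4 it was -0.45 (unadjusted p = 0.200). Pik3ca was below background on every array.

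The Akt isoforms differed in sign, Akt1 having a lower mean and Akt2 a higher mean in a3a6KO. Akt1 was at 6.51, 5.94, 4.91 and 5.53 in a3a6KO 1 to 4 and 6.84, 6.39, 5.27 and 6.88 in control 1 to 4, a difference of -0.62 (SE 0.427, unadjusted p = 0.178, adjusted p = 0.948 in limma). Control 3 lay below 3 of the a3a6KO arrays, and the other controls overlapped with a3a6KO 1 alone. The difference of Akt1 was -0.35 without a3a6KO 3 and -0.98 without control 3 (unadjusted p = 0.0251, adjusted p = 0.969 in limma). It was -0.12 without a3a6KO 3 and 4 (unadjusted p = 0.807). With the replicate block it stayed at -0.62 (unadjusted p = 0.0361, adjusted p = 0.942 in limma). Akt2, the isoform known for its role in glucose uptake in muscle and fat, was at 5.30, 8.28, 4.64 and 6.86 in a3a6KO and 5.64, 6.15, 4.83 and 6.03 in control, a difference of 0.61 (SE 0.711, unadjusted p = 0.414, adjusted p = 0.956). Here a3a6KO 2 and 4 stood above every control and above background, a3a6KO 1 lay among the lower controls and a3a6KO 3 below all of them. The difference of Akt2 was -0.062 without a3a6KO 2, 1.15 without a3a6KO 3 and 1.13 without a3a6KO 3 and 4 (unadjusted p = 0.189). The residual SD of Akt2, 1.23, exceeded that of 98.8% of genes, and that of Akt1, 0.713, exceeded that of 90.0%.

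Whether the isoforms changed unequally was tested on the difference Akt1 minus Akt2 within each array, which takes out any shift shared by both probe sets. Most of the values behind it lay below background, Akt1 exceeding it on control 4 alone and Akt2 on a3a6KO 2 and 4 alone. It was 1.21, -2.34, 0.27 and -1.33 in a3a6KO 1 to 4 and 1.20, 0.24, 0.44 and 0.85 in control 1 to 4. The 2 arrays a3a6KO 2 and 4 were far below the controls, a3a6KO 3 was within their range and a3a6KO 1 stood beside the highest of them. Means were -0.55 ± 1.59 in a3a6KO and 0.68 ± 0.43 in control (SD, n = 4), a difference of -1.23 (95% interval -3.24 to 0.78). An exact two-sided permutation test over 70 assignments gave p = 0.286, where 0.0286 is the smallest possible. It was the single pair compared. The p was lowest without a3a6KO 1 (-1.82, exact permutation p = 0.0571) and highest without a3a6KO 2 (-0.63, exact permutation p = 0.514). Without a3a6KO 3 and 4 the difference was -1.25 (exact permutation p = 0.4), with fewer assignments and so a higher smallest possible p. An unequal change of the isoforms was therefore not shown, and the interval does not exclude one of either sign.

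**Figure D2:**
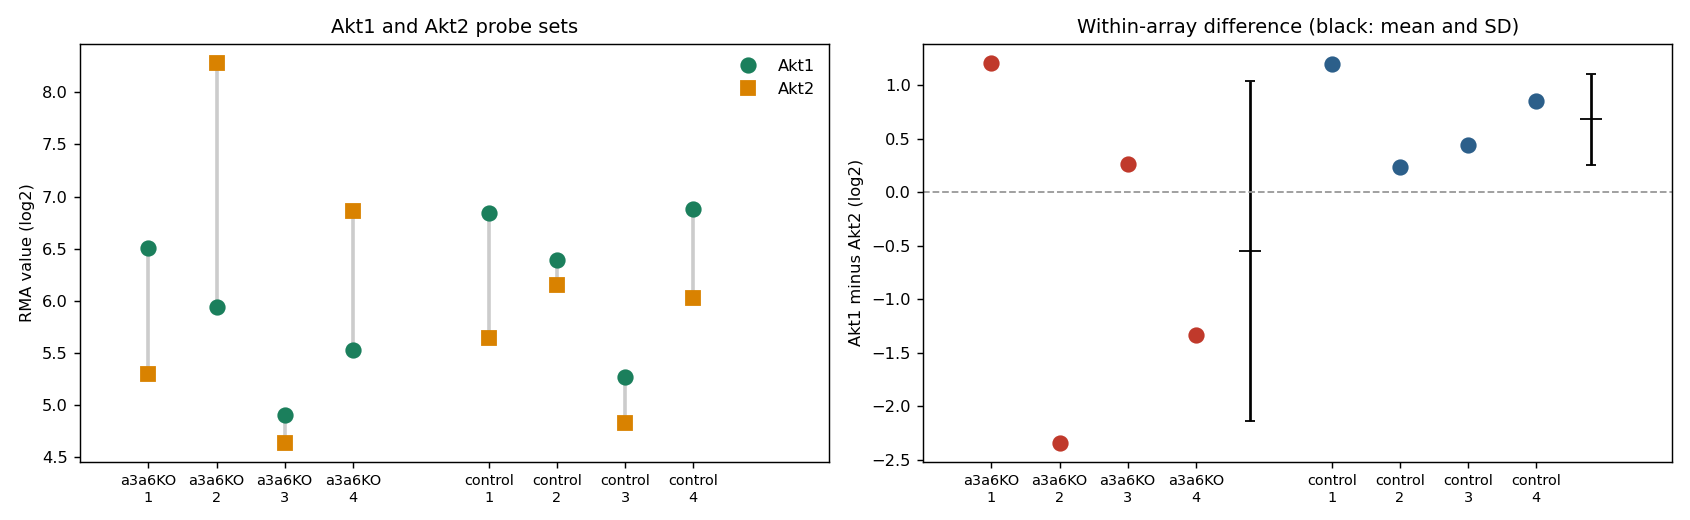
Left, deposited log2 values of Akt1 (circles) and Akt2 (squares) on each array, joined by a line, where the height of one probe set cannot be read against the other. Right, Akt1 minus Akt2 within each array (log2), with the mean and SD of each group in black (n = 4), showing a3a6KO 2 at -2.34 and a3a6KO 4 at -1.33 against 0.24 to 1.20 in control.

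The promoter windows of the isoforms differed in their matches. GTAAACA, as its reverse complement TGTTTAC, was found in 1 of 2 Akt1 windows, 161 bases before the start, and in 3.65% of all windows. The 60 bases around it (chr12:112675013-112675072, minus strand) are shown because Akt1 was the member that held this match, in capitals.
Akt1: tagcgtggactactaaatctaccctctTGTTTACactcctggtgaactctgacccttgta
TTCNNNGAA, read alike on both strands, occurred in Akt2 and Mtor and in 8.3% of all windows, starting 160 bases before the start in Akt2 and 228 in Mtor. How these letters relate to the levels was not tested.

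Mtor, the kinase of both mTOR complexes, had its 4 a3a6KO arrays split around a tight control group. It was at 5.68, 5.15, 2.52 and 5.51 in a3a6KO 1 to 4 and at 4.32, 4.10, 3.65 and 4.22 in control 1 to 4. Thus 3 a3a6KO arrays exceeded every control and a3a6KO 3 was the lowest of all 8. At least 3 a3a6KO arrays above every control were found in 7.11% of all genes and in 1 of the 10 members. The difference was 0.64 (SE 0.621, 95% interval -0.76 to 2.04, adjusted p = 0.950 in limma). Without a3a6KO 3 it was 1.37 (unadjusted p = 0.000271, adjusted p = 0.788), without a3a6KO 1 0.32, and without a3a6KO 3 and 4 1.34 (unadjusted p = 0.00154, adjusted p = 0.680). All 8 values lay below background. Rptor, the scaffold of mTOR complex 1, was at 4.50, 4.10, 3.02 and 5.52 in a3a6KO and 3.55, 4.46, 4.19 and 2.66 in control, a difference of 0.57 (SE 0.542, adjusted p = 0.950). Its values overlapped over most of their range, and it too was below background throughout. The difference of Rptor was 0.16 without a3a6KO 4, 0.99 without a3a6KO 3 and 0.58 without both. Residual SDs of Mtor and Rptor exceeded those of 97.7% and 95.7% of genes.

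Rheb, the GTPase that switches on mTOR complex 1, was measured close to or above background in both groups. Its values were 7.05, 6.63, 7.56 and 7.04 in a3a6KO 1 to 4 and 6.81, 7.29, 7.22 and 7.80 in control 1 to 4, a difference of -0.21 (SE 0.261, 95% interval -0.80 to 0.38, adjusted p = 0.962 in limma). The groups overlapped, with the highest value in control 4 and the lowest in a3a6KO 2. Without control 4 the difference was -0.037, without a3a6KO 3 it was -0.37 and without a3a6KO 3 and 4 it was -0.44.

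**Figure D3:**
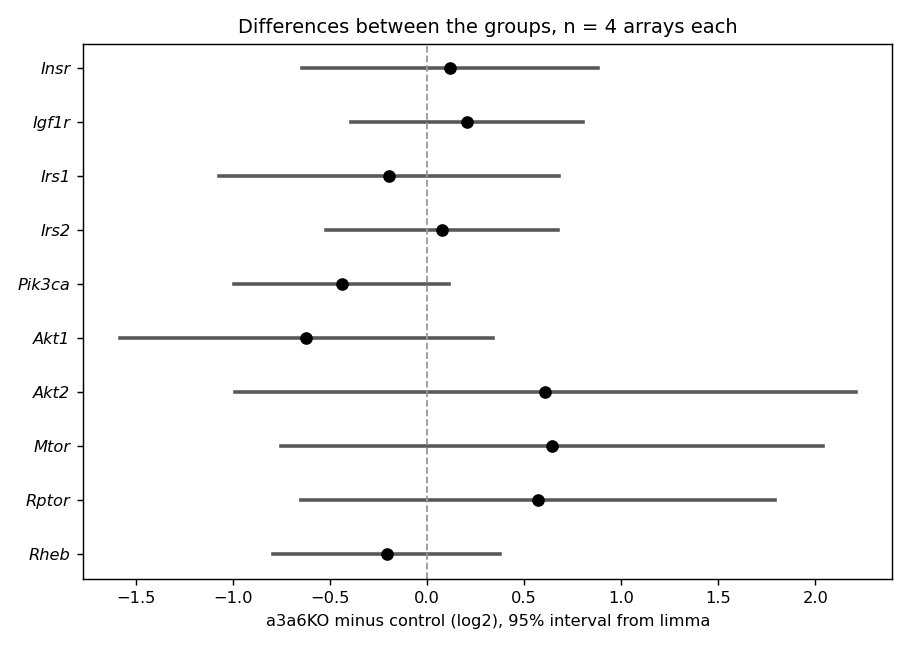
Difference of each gene, a3a6KO minus control (log2, horizontal axis), with its 95% interval from limma (n = 4 arrays per group). Every interval includes 0, and those of Akt2 and Mtor are the widest, reaching 2.21 and 2.04.

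Many of the low values in a3a6KO came from 1 array. In 6 of the 10 members (Irs2, Pik3ca, Akt1, Akt2, Mtor and Rptor), a3a6KO 3 was the lowest of the 4 a3a6KO arrays, against 25.5% of all genes. This count was made after the values were seen, and the members are not independent of each other. The same array had the highest basal marker mean of the a3a6KO group, 7.17 against 5.34 to 5.70 on the others, and the highest endothelial marker mean, 5.67 against 4.11 to 4.52 (6 genes measured, 3 above background on no array, and 4.11 to 5.86 in control). Its fibroblast marker mean, 5.15, stood above the other a3a6KO arrays (4.09 to 4.30) and above every control (4.05 to 4.69), with 4 of the 5 genes above background on no array. Leukocyte markers, 3 of 4 above background on no array, had means on all 4 a3a6KO arrays within the range of the control arrays, 2.81 to 3.86. The part of these markers in the members' values was not tested directly. With the basal marker mean as a covariate in limma, the differences were -0.81 for Akt1, 0.21 for Akt2, -0.72 for Pik3ca (adjusted p = 0.813) and -0.20 for Mtor, none past the threshold. The basal mean was itself lower in a3a6KO by 1.04 on average (5.34 to 7.17, against 6.12 to 7.78 in control), so that fit cannot separate it from the label.

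**Figure D4:**
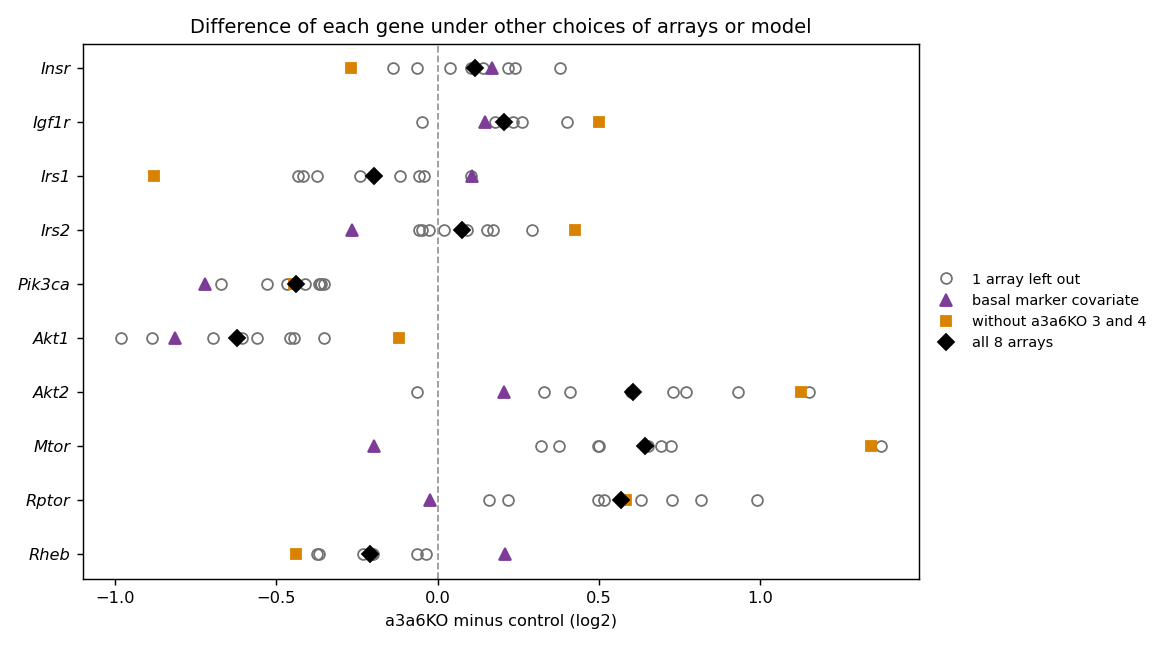
Difference of each gene, a3a6KO minus control (log2, horizontal axis), with all 8 arrays (black), with 1 array left out (open circles), without a3a6KO 3 and 4 (squares) and with the basal marker covariate (triangles). Pik3ca and Akt1 stay below 0 in all of these, Akt1 coming closest at -0.12 without a3a6KO 3 and 4, and the other 8 genes cross 0 in at least 1.

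Around the 10 members, 10 lists of 140 pathway genes were examined, of which 131 were measured. Leaving out the members, 61 of 121 genes had higher and 60 lower means in a3a6KO, with a median difference of 0.02. In limma 0 of the 121 passed over all genes, and 5 had an unadjusted p under 0.05, 4 higher and 1 lower, beside 5.13% of all genes. Of the 131 genes 73 (55.7%) exceeded background on no array, against 76.4% of all genes. Leaving out 1 array moved the differences of 19 of the 27 other named genes by over 1.5 times, and these values are given with the lists. The sign turned in none of the 27, against 5 of the 10 members. Since the 27 were picked for small p on these same arrays, which favours a stable sign, this is no check of them.

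Upstream of the receptors, ligands and binding proteins had higher means in 7 of 11 genes (median 0.08), with 0 past the threshold in either direction. Igf2r, which clears IGF2 and sorts lysosomal enzymes, was at 6.19, 6.81, 6.05 and 7.49 in a3a6KO and 6.09, 5.23, 6.14 and 5.56 in control (difference 0.88, SE 0.345, adjusted p = 0.944 in limma). Here 3 of 4 a3a6KO arrays lay above every control, where 7.11% of all genes had at least 3 such arrays. Igf2r exceeded background on 2 a3a6KO arrays and on no control array. Igf1 differed by 0.78 (SE 0.396), or 0.38 without a3a6KO 3, and was below background on every array. Igfbp2, an IGF binding protein, differed by -1.44 (SE 0.762). Its values were 4.26, 4.99, 6.41 and 4.86 in a3a6KO and 5.12, 8.52, 5.34 and 7.30 in control, so its 3 highest arrays (control 2, control 4 and a3a6KO 3) were also the 3 with the highest basal marker means. Its difference was -0.79 without control 2, and it exceeded background on 2 control arrays alone. With the basal marker mean as a covariate, the differences were -0.030 for Igfbp2, 1.40 for Igf1 and 0.46 for Igf2r. That fit cannot separate the basal mean from the label, and the part of basal cells in these values was not tested.

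Among receptors and adaptors, 7 of 15 genes had higher means (median -0.06), again with 0 past the threshold either way. Grb2, the adaptor towards Ras, differed by 0.56 (SE 0.288), Grb10, an inhibitor of both receptors, by -0.82 (SE 0.458) and Irs4 by -0.26 (SE 0.188). These 3 genes were below background on every array, and their differences shrank to 0.36 (Grb2, without a3a6KO 4), -0.44 (Grb10, without control 4) and -0.14 (Irs4, without control 4). In the list of PI3-kinase and lipid phosphatases, 4 of 12 were higher and 8 lower (median -0.08), and 0 passed. Pik3ip1, an inhibitor of PI3-kinase, differed by -0.63 (SE 0.268, unadjusted p = 0.0431) below background, and Pik3r3, a regulatory subunit, by 0.29 (SE 0.23). Without control 3 the difference of Pik3ip1 was -0.37, and that of Pik3r3 was 0.12 without control 1 and 0.47 without control 4.

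Around Akt, 7 of 13 genes were higher and 6 lower (median 0.03), with 0 past the threshold. Pdpk1, the kinase that phosphorylates the activation loop of Akt, exceeded background on every array and was at 8.70, 8.12, 8.91 and 8.28 in a3a6KO, against 8.01, 6.75, 8.34 and 7.79 in control. Its difference was 0.78 (SE 0.34, unadjusted p = 0.0467, adjusted p = 0.944 in limma), with a3a6KO 1 and 3 above every control, and it was 0.46 without control 2, the lowest array. Sgk1, a kinase related to Akt and controlled by mTOR complex 2, was at 9.36, 9.37, 9.33 and 9.20 in a3a6KO and 8.98, 8.97, 9.13 and 9.17 in control. It was the single pathway gene of 131 whose groups did not overlap, a pattern seen in 2.94% of all genes, and its difference was small (0.25, SE 0.144, adjusted p = 0.946). Sgk2 differed by 0.33 below background, which rested on a3a6KO 1 at 3.74 (0.12 without it).

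The mTOR complexes list had 6 of 10 genes higher (median 0.08) and 0 past the threshold, and all 10 were below background on every array. Telo2, a chaperone factor for mTOR and related kinases, differed by 0.66 (SE 0.236, unadjusted p = 0.0207) and Mapkap1, a subunit of mTOR complex 2, by -0.38 (SE 0.364), or -0.051 without a3a6KO 3. In the list of Rheb and its upstream control, 5 of 13 were higher and 8 lower (median -0.04). Stk11, the kinase that activates AMPK, was above background on every array, at 9.37, 8.66, 9.01 and 9.62 in a3a6KO against 8.20, 8.78, 8.71 and 8.91 in control. Its difference was 0.52 (SE 0.249, adjusted p = 0.944 in limma), with 3 a3a6KO arrays above every control, where 7.11% of all genes had at least 3 such arrays. The AMPK subunit genes Prkaa2 and Prkab2 differed by -0.73 (SE 0.34) and -0.47 (SE 0.275), below background. Without control 3 the differences were -0.43 for Prkaa2 and -0.31 for Prkab2, and without control 4 they were -0.93 and -0.70.

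Genes of amino acid sensing were higher in 12 of 22 (median 0.03). Wdr24, a subunit of a complex that relays amino acid signals to mTOR complex 1, differed by -0.35, Flcn, which acts on the Rag GTPases, by 0.55 and Sesn2, a leucine sensor, by 0.42, all with adjusted p of 0.944 or more in limma. Wdr24 and Sesn2 were below background on every array and Flcn above it on 1. The difference of Flcn was 0.26 without a3a6KO 2, and that of Sesn2 0.18 without a3a6KO 1. Of the substrates of mTOR complex 1 and translation genes, 6 of 14 were higher (median -0.04). Lpin1, which takes part in triglyceride synthesis, differed by -0.63 (SE 0.304) and exceeded background on 1 a3a6KO array and 3 control arrays. Pdcd4, an inhibitor of translation, was above background on every array and differed by -0.29 (SE 0.151), and Tfeb, the lysosomal transcription factor, by -0.22 (SE 0.181) below background. Without control 1 the difference of Lpin1 was -0.37, and without control 2 that of Tfeb was -0.083.

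Downstream of Akt, 8 of 13 substrates had higher means (median 0.07). Tbc1d4, which controls glucose transporter traffic and was below background on every array, differed by 0.57 (SE 0.289), the glycogen synthase kinase gene Gsk3a by 0.33 (SE 0.204) and the cell cycle inhibitor gene Cdkn1b by -0.26 (SE 0.198). These differences were 0.38 for Tbc1d4 without control 1, 0.17 for Gsk3a without a3a6KO 1 and -0.14 for Cdkn1b without control 3. Genes known to be induced by FoxO factors, which Akt holds out of the nucleus, were higher in 9 of 14 (median 0.09), a list that holds Insr and Irs2 too. Cited2 differed by 0.52 (SE 0.217, unadjusted p = 0.0393, adjusted p = 0.944 in limma) and Gadd45a by -0.67 (SE 0.306). For Cited2, 3 of 4 a3a6KO arrays lay above every control, where 7.11% of all genes had at least 3 such arrays. Pik3ip1, given above with the lipid kinases, belongs to this list as well (-0.63, unadjusted p = 0.0431, adjusted p = 0.944 in limma), with all 8 values below background. In each of these lists 0 genes passed the threshold in either direction.

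**Figure D5:**
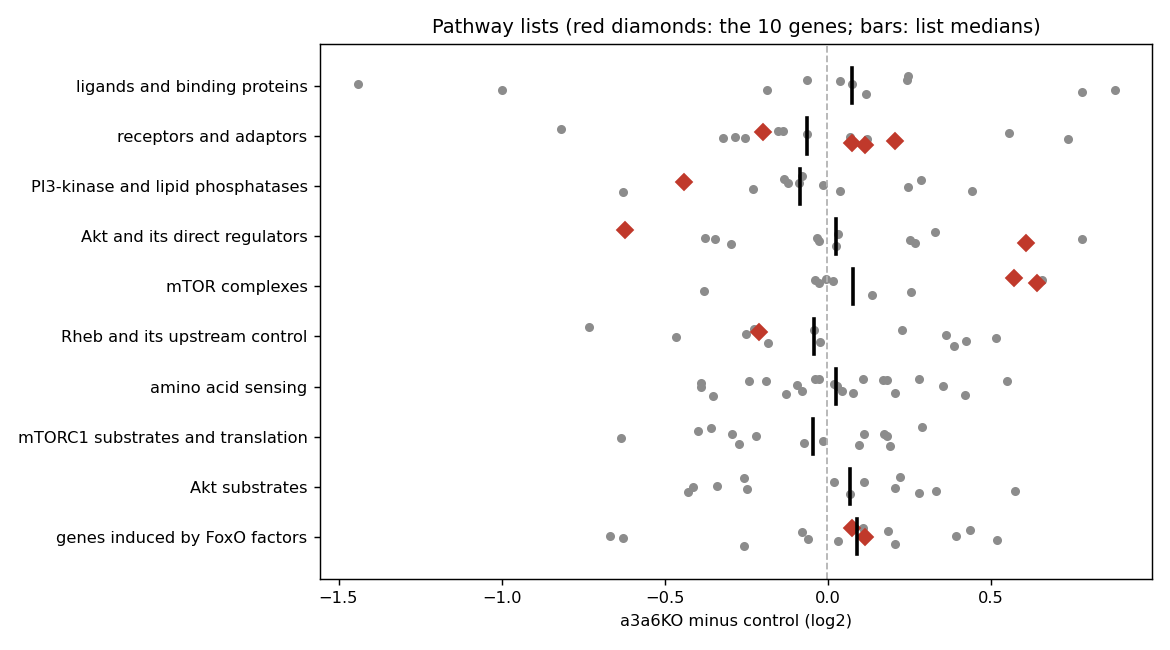
Difference of each measured gene, a3a6KO minus control (log2, horizontal axis), in the 10 pathway lists, with the 10 members as red diamonds, other genes as grey points and list medians as black bars. The list medians lie between -0.08 and 0.09, and the dashed line is the median of all genes, -0.0025.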

How the data were processed

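The deposited values are log2 intensities, 1 for each of 28846 probe sets and each of 8 arrays, and per the submitters' processing notes the authors made them with Affymetrix Expression Console and RMA, versions and genome build not stated. Because RMA gives all arrays 1 distribution, a change common to most genes is lost. Gene names came from the annotation of the array platform in GEO: 19572 probe sets had 1 gene symbol, 0 several and 9274 none. Where a symbol had several sets (55 genes), that of highest mean was kept, leaving 19505 genes.

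The values were compared as deposited with limma 3.58.1 (R 4.3.3), by lmFit with a term for group and eBayes (p-values two-sided and adjusted by Benjamini and Hochberg across the 19505 genes). The script was tested on simulated data. The number of arrays limits precision: the median 95% interval reached 0.53 to either side on the log2 scale. No identical arrays were found, and correlations over genes were 0.930 to 0.945 within and 0.924 to 0.946 between groups. The Akt isoform test was an exact permutation test. Named genes were the 10 members and, in each pathway list, the 3 of smallest unadjusted p. Members and lists were chosen with earlier results of these data known. Of 140 listed genes 9 are not analysed here. Alternatives were the replicate block, each array left out, a filter on dim genes, median centring, quantile normalization, array weights, trend and robust eBayes, the mean of probe sets and a basal marker covariate. Promoters are RefSeq's (GRCm38.p6).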

Additional observations from a re-analysis of the deposited data

Results flagged for a closer look

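Single arrays far from the other 3 of their group were looked for in the 10 members, the Akt1 minus Akt2 difference and the 27 other named genes, which made 76 groups of 4. A gap to the nearest array above 0.829 of the group's range was found in 4 of them, where about 1 in 20 groups would show it by chance. Mtor in a3a6KO 3 was at 2.52, with the other a3a6KO arrays at 5.15 to 5.68. Pik3ca in control 4 was at 5.42, with the other controls at 6.33 to 6.35. Sgk2 in a3a6KO 1 was at 3.74, against 2.88 to 2.91 on the others, and Tfeb in a3a6KO 2 at 5.25, against 5.07 to 5.09. All 4 genes lay below background on every array.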

How the results depend on the processing

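No gene passed the threshold in limma with all arrays, and none did under any of the 17 alternatives (0 each), among them each single array left out, with 929 to 1111 genes at an unadjusted p under 0.05 where all genes were tested and 165 of 2774 with dim genes left out. The lowest adjusted p of any member under these alternatives was 0.680, for Mtor without a3a6KO 3 and 4 (1.34), a setting chosen after the data were seen. Differences ran, with 1 array left out, from -0.14 (without control 2) to 0.38 (without a3a6KO 1) for Insr, -0.048 (without a3a6KO 2) to 0.40 (without a3a6KO 4) for Igf1r, -0.43 (without a3a6KO 3) to 0.10 (without a3a6KO 2) for Irs1, -0.058 (without a3a6KO 1) to 0.29 (without a3a6KO 3) for Irs2, -0.67 to -0.35 for Pik3ca, -0.98 to -0.35 for Akt1, -0.062 to 1.15 for Akt2, 0.32 to 1.37 for Mtor, 0.16 to 0.99 for Rptor, -0.37 to -0.037 for Rheb and -1.82 to -0.63 for Akt1 minus Akt2. Signs turned without a3a6KO 3 and 4 in Insr (-0.27), and with the basal marker covariate in Irs1 (0.11), Irs2 (-0.27), Mtor (-0.20), Rptor (-0.023) and Rheb (0.21). The cause was not tested. The dim filter kept Irs2 and Rheb alone of the members. The replicate block used the numbers in the titles, which did not pair the arrays (correlations of deviations -0.061 to 0.039, 1 of 4 arrays closest to its own number). It left 0 genes past the threshold, 1003 at an unadjusted p under 0.05 against 1000 without it, and Akt1 minus Akt2 at -1.23 (exact sign-flip permutation p = 0.25, smallest possible 0.125). Signal limits Insr, Igf1r, Irs1, Pik3ca, Mtor and Rptor, which did not exceed background on any array, and Akt1 and Akt2, which exceeded it on 1 and 2 of 8 arrays, and so also their difference.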

Other observations

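Pathway genes with signal above background on every array, some of them only slightly, were looked at apart, after the values were seen. Of the 131 measured pathway genes 24 (18.3%, against 8.25% of all genes) exceeded background on all 8 arrays. Means in a3a6KO were higher for 16 and lower for 8 of these, where 49.6% of all genes had higher means, and the median difference was 0.09. In limma 0 of the 24 passed over all genes. Their 95% intervals reached a median of 0.48 to either side, from 0.32 to 1.50. In limma 2 of the 24 had an unadjusted p under 0.05, beside 5.13% of all genes and 165 of 2774 with dim genes left out. The groups did not overlap in 1 of the 24, beside 2.94% of all genes. The largest differences, given above, were those of Pdpk1 (0.78), Cited2 (0.52) and Stk11 (0.52), and genes not given above follow. Pik3r1, the main regulatory subunit of PI3-kinase, was at 9.14 ± 0.38 in a3a6KO and 9.27 ± 0.30 in control (SD, n = 4), and Pik3cb, another catalytic subunit, differed by -0.09 (95% interval -0.51 to 0.34). Rps6, the ribosomal protein phosphorylated downstream of mTOR complex 1, differed by -0.07 (95% interval -0.41 to 0.26). Gsk3b differed by 0.21 (-0.24 to 0.65), Eif4ebp2, a repressor of translation released by mTOR, by 0.18 (-0.33 to 0.69), and Acly, the enzyme that makes acetyl-CoA for lipid synthesis, by 0.02 (-0.45 to 0.49). Igfbp5, an IGF binding protein known to rise in the involuting mammary gland, differed by -0.06 (-0.55 to 0.42). Igfbp7 had the widest interval (-1.43 to 1.57 around 0.08), with SDs of 1.24 in a3a6KO and 1.05 in control.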
